A study of Mus musculus with 9 samples.

Results

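The collagen genes of mouse lung were measured as a family: every array probe whose RefSeq transcript carries a gene symbol of the form Col, number, a, number was taken, leaving out Col13a1, which is not reported here. This gave 43 genes on 65 probes, out of 22911 genes named through RefSeq transcripts. Tests were run on 36 of these genes, with 44 probes, because each had a probe called well above background in all 3 lungs of some group; 16843 genes and 37647 probes of the whole array met that condition. The other 7 genes, Col6a6, Col9a1, Col9a3, Col10a1, Col11a1, Col19a1 and Col25a1, had no probe that met it.

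Whole lungs of 9 mice were each hybridised to 1 one-colour array. All 9 mice, cre carriers and controls alike, had floxed alleles of Terf1 (TRF1flox/flox), the gene of the telomere-binding protein TRF1, and all were given 250 mg/kg tamoxifen weekly, starting when they were 8 weeks old. The control group lacked cre, had 9 months of tamoxifen and was 11 months old (n = 3). The SPC-cre TRF1flox/flox mice were either 5 months old with 3 months of tamoxifen (3-month cre, n = 3) or 11 months old with 9 months of it (9-month cre, n = 3), so the early and the late stage were each set against controls of the late age. Age and tamoxifen time of the 3-month cre lungs cannot be told apart from genotype when they are compared with these controls, and no cre-free lungs of 5 months were analysed here. Cre expression is under the SPC (surfactant protein C) promoter, active in alveolar type 2 cells, which are not the main collagen producers of the lung. A whole lung mixes all its cell types, and fewer cells of a type and less RNA per cell cannot be told apart.

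Collagens are triple helices of 3 alpha chains, and each kind of chain is the product of its own gene. Fibrillar collagens, chiefly types I and III, form the load-bearing fibres made by fibroblasts and related mesenchymal cells. Type IV chains assemble into the sheet-like network of the basement membrane beneath the alveolar epithelium and the capillary endothelium, and type VI forms beaded microfibrils between that membrane and the surrounding matrix. FACIT collagens (types IX, XII, XIV and relatives) attach to the surface of fibrils. Excess fibrillar collagen is the defining deposit of lung fibrosis.

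The 75th percentile of processed signal lay between 1347 and 2002 intensity units, against a local background of 28 to 35 units, and 62.7% to 72.4% of probes per array were well above background. Levels are log2 signal relative to that percentile of the same array, so 0 is the percentile itself and 1 is a doubling; differences are log2 fold changes with their standard error (SE) from limma, and the words rose and fell are kept for a Benjamini-Hochberg adjusted p under 0.05 over the 16843 genes. The lungs lay on 2 slides: 3-month cre replicate 1 shared slide 1 with the 3 controls, and the other 5 lungs were on slide 2. The share of probes well above background was 62.7% to 64.9% on slide 1 and 68.0% to 72.4% on slide 2. Counts of arrays above background in cre and control lungs thus carry this slide difference. Animal sex, read from Xist and Y-linked probes, was male for the 3 controls, for 3-month cre replicate 2 and for 9-month cre replicate 1, and female for the other 4. Terf1, the targeted gene, was at -0.37, -0.05 and 0.20 in controls, -0.58, -0.68 and -0.62 in 3-month cre and -0.41, -0.97 and -0.39 in 9-month cre lungs, a difference of -0.52 (adjusted p = 0.131) at 9 months and -0.55 (adjusted p = 0.19) at 3 months. All arrays of both cre groups were below all control arrays for Terf1, although neither difference passed the test. Sftpc, the defining alveolar type 2 gene, was between 7.89 and 8.60 on every array, and 8 of 8 alveolar type 2 and 8 of 8 endothelial markers were measured.

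Of the collagen genes, 2 of 36 were called between 9-month cre and control lungs: Col24a1 rose and Col4a5 fell. Over all genes 6.45% were called in that comparison, 3.65% higher and 2.81% lower, so the share of collagen genes called was near the background. The 3 controls were all male and all on slide 1: with slide as a block, or with animal sex as a covariate, limma called 0 of 16843 genes in this comparison, with 837 and 3711 at an unadjusted p under 0.05. The deposited, already normalized values gave 554 genes higher and 651 lower in place of 614 and 473. The median log2 fold change of the 36 genes was -0.019, against 0.024 for all genes. Between 3-month cre and control lungs limma called 0 of 36 collagen genes, where 0.451% of all genes were called, 0.368% higher and 0.0831% lower. Of the collagen genes 1 was higher and 2 were lower at an unadjusted p under 0.05, against 11.6% and 7.09% of all genes. Between 9-month and 3-month cre lungs 1 of 36 was called, Col4a5, which was lower at 9 months, against 4.99% of all genes, 1.79% higher and 3.2% lower. Differences were negative for 20, 20 and 18 of the 36 genes in these 3 comparisons, against 47.2%, 42.4% and 53.1% of all genes. The 2 comparisons with controls use the same 3 control lungs.

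**Figure D1:**
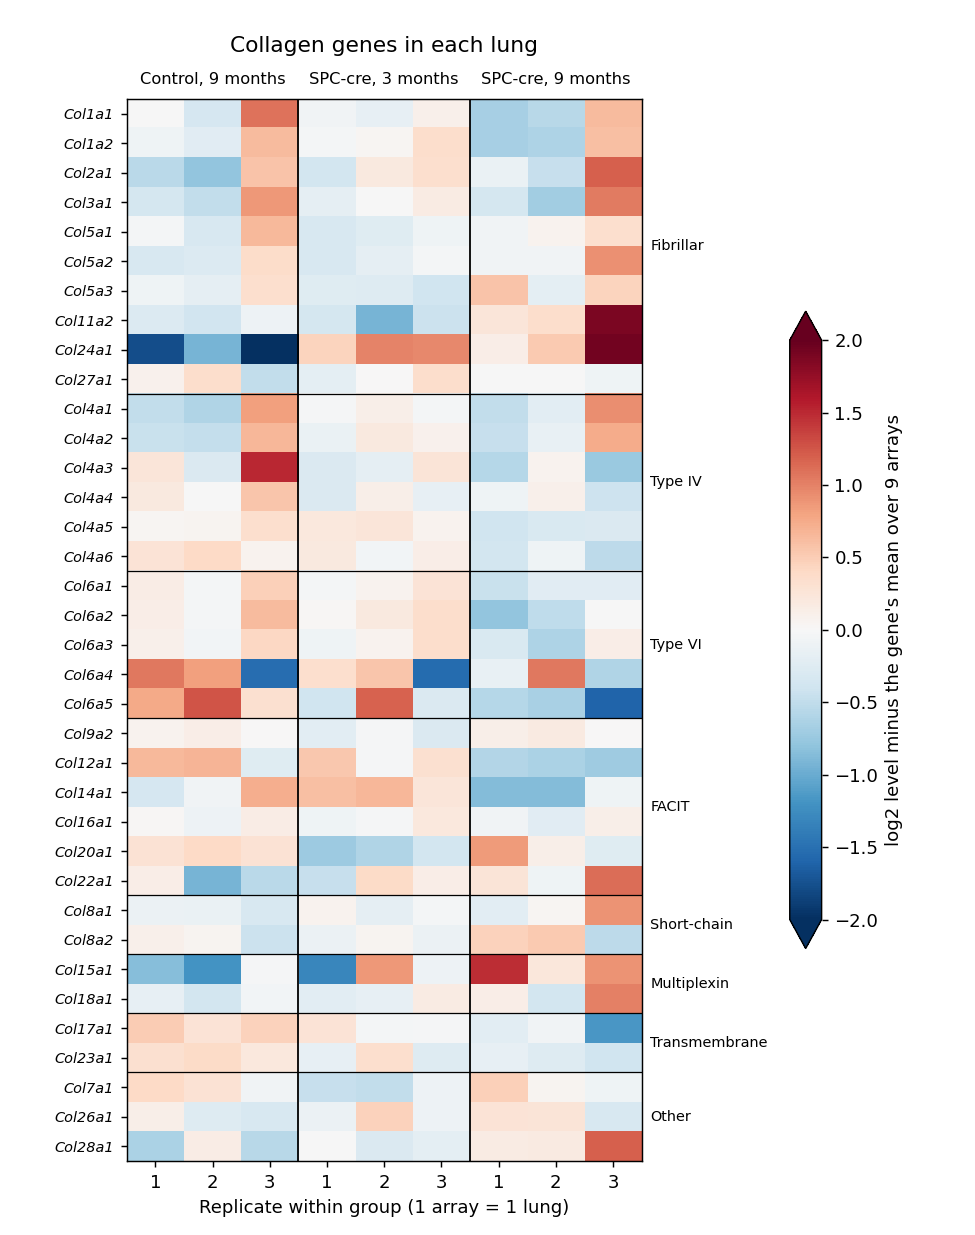
Level of each of 36 collagen genes (rows, grouped by structural class) in each of 9 lungs (columns), as log2 level minus the gene's own mean over the 9 arrays; the colour scale ends at 2 in either direction. Col24a1 is blue in the 3 controls and red in all 6 cre lungs. Col4a5 and Col12a1 are lower in all 3 of the 9-month cre lungs. Replicate 3 of the controls and of the 9-month cre lungs is red for Col1a1, Col1a2, Col2a1, Col3a1, Col4a1 and Col4a2.

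Upstream sequences are given here for the called genes, Col4a5 on chromosome X and Col24a1 on chromosome 3, and for Col4a6, the neighbour of Col4a5 with no coding gene between them. The sequences are from RefSeq on the GRCm38.p6 build, 5′ to 3′ on the gene's own strand, and each ends before the annotated gene begins. Capitals mark a match to CCAAT, searched on both strands together with GGGCGG and TATAAA; these 3 motifs share no overlap in the stretches shown. Col4a5 lies on the plus strand (chrX:141475169-141475369), Col4a6 on the minus strand (chrX:141474096-141474326) and Col24a1 on the plus strand (chr3:145292222-145292471).
Col4a5: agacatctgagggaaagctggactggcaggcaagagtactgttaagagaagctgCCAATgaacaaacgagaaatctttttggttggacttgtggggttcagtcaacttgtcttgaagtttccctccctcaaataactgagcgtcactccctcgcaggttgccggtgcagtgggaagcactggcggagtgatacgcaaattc
Col4a6: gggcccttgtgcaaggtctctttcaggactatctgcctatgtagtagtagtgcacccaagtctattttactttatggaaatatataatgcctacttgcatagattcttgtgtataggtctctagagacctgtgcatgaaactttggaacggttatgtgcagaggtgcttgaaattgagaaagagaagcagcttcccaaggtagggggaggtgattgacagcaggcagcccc
Col24a1: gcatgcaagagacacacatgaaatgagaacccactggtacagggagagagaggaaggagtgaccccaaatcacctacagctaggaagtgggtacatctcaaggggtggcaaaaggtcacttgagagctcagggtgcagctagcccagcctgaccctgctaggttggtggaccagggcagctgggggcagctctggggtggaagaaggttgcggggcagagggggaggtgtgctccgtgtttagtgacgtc
The Col4a5 stretch held 1 CCAAT match, and no searched motif was found in the Col4a6 and Col24a1 stretches. These stretches are parts of 300-base windows. The full windows of Col4a5 and Col4a6 each held a GGGCGG match not wholly inside the stretch shown, and that of Col24a1 held no searched motif. Promoter windows of 300 bases were found for 34 of the 43 collagen genes, 37 windows in all. Among them 62.2% held GGGCGG, the GC box, against 35.7% of 32851 mouse promoter windows of the same length, 35.1% held CCAAT against 37.4%, and 10.8% held TATAAA against 13.6%. The median GC content was 59.7% in the collagen windows and 52.7% in all windows. These matches describe letters in the windows and are not binding sites.

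Type IV collagen has 6 chains, which are encoded in 3 neighbouring pairs: Col4a1 with Col4a2, Col4a3 with Col4a4, and Col4a5 with Col4a6. The first pair goes into the basement membrane of almost all tissues. Chains of the others go into more specialised membranes such as those of the alveolus and the kidney glomerulus. Col4a5 was at 1.77, 1.78 and 2.06 in controls, 1.94, 1.97 and 1.8 in 3-month cre lungs, and 1.33, 1.42 and 1.44 in 9-month cre lungs. Every 9-month cre lung was below every other lung, and the control and 3-month cre lungs overlapped. The gene fell by 0.47 ± 0.115 (SE) on the log2 scale against controls (95% interval -0.74 to -0.21, adjusted p = 0.0485) and by 0.51 ± 0.115 against 3-month cre lungs (adjusted p = 0.0475), while 3-month cre and control lungs differed by 0.03 (adjusted p = 0.902).

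The direction for Col4a5 was the same under all 21 alternatives against controls and all 22 against 3-month cre lungs, but only 4 and 6 of them kept the call, with adjusted p from 0.0304 to 0.985 and from 0.0318 to 0.21. With slide as a block the differences for Col4a5 were -0.42 (adjusted p = 0.985) and -0.49 (adjusted p = 0.145), and within slide 2 alone 9-month minus 3-month cre was -0.49 (adjusted p = 0.21). With animal sex as a covariate they were -0.47 (adjusted p = 0.147) and -0.51 (adjusted p = 0.0729). A second Col4a5 probe was at -0.99, -1.14 and -0.45 in controls, -0.70, -0.23 and -0.40 in 3-month cre and -1.41, -1.13 and -1.22 in 9-month cre lungs. This probe was lower in every 9-month cre lung than in every 3-month cre lung but overlapped the controls, at -0.81 (adjusted p over probes 0.0526) and -0.39 (adjusted p over probes 0.278).

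Col4a6, its neighbour, was at 0.71, 0.84 and 0.51 in controls, 0.63, 0.38 and 0.57 in 3-month cre and 0.07, 0.35 and -0.09 in 9-month cre lungs. As for Col4a5, all 9-month cre lungs were below all other lungs. The differences of -0.58 ± 0.15 from controls (adjusted p = 0.0573) and -0.42 ± 0.15 from 3-month cre lungs (adjusted p = 0.115) did not pass the test. Both genes are X-linked. The male 9-month cre lung had 1.33 for Col4a5 and 0.07 for Col4a6, below the 3 male controls in each case. This is 1 lung on slide 2, while those controls were on slide 1, so slide and genotype cannot be told apart in it. The male 3-month cre lung, also on slide 2, was at 1.97 for Col4a5 and 0.38 for Col4a6, and it differs in age and tamoxifen time. Beyond the fit with animal sex as a covariate, the part of sex in these values was not tested.

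The other type IV chains gave a different picture. Col4a1 was at 3.52, 3.41 and 4.84 in controls, 4.0, 4.13 and 3.98 in 3-month cre and 3.53, 3.80 and 4.95 in 9-month cre lungs, and its partner Col4a2 at 2.97, 2.94 and 4.08, then 3.29, 3.62 and 3.5, then 2.96, 3.27 and 4.16. The groups overlapped throughout, and the 9-month cre minus control differences were 0.17 ± 0.446 and 0.14 ± 0.375. Col4a3, a chain of the alveolar and glomerular network, was at -1.06, -1.59 and 0.21 in controls, -1.60, -1.49 and -1.04 in 3-month cre and -1.88, -1.24 and -2.04 in 9-month cre lungs. Control replicate 3 set the control mean there: the difference at 9 months was -0.91 (adjusted p = 0.211) with it and -0.40 without it. Col4a4, which shares its locus with Col4a3, differed by -0.38 at 9 months (adjusted p = 0.24) and by -0.36 at 3 months (adjusted p = 0.342). Over the 6 chains, 1 fell, 0 rose and the median difference at 9 months was -0.43.

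**Figure D2:**
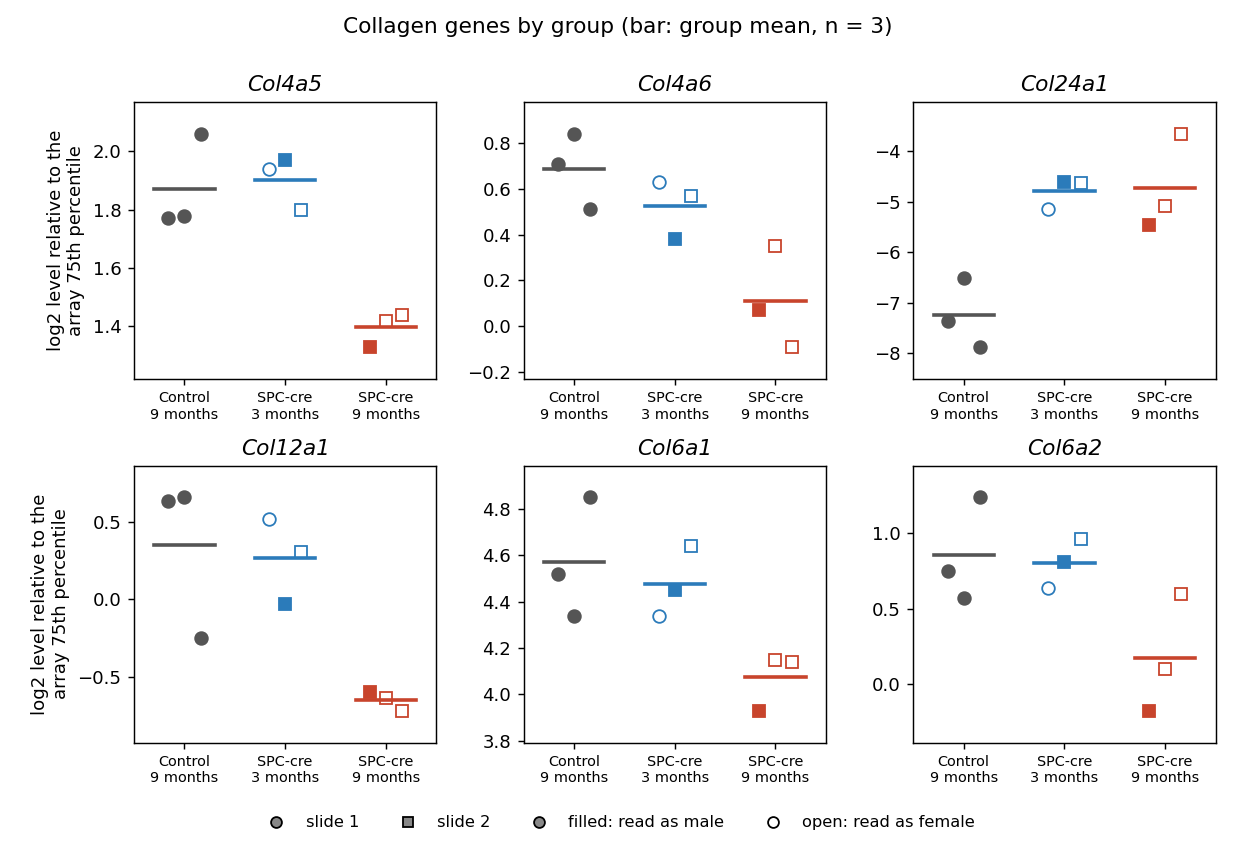
Level of 6 collagen genes in each lung by group, on a separate log2 axis per gene; circles are slide 1, squares slide 2, filled symbols lungs read as male and open symbols lungs read as female, and bars are means of 3. Every 9-month cre lung is below every control lung for Col4a5, Col4a6, Col12a1 and Col6a1, and Col6a2 overlaps between these groups; for Col24a1 all 6 cre lungs are above all controls.

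Col24a1, a minor fibrillar collagen known mainly from bone and cornea, was the collagen gene that rose. It was at -7.36, -6.51 and -7.87 in controls, where it was not well above background on any array, at -5.14, -4.60 and -4.63 in 3-month cre lungs and at -5.45, -5.07 and -3.65 in 9-month cre lungs, where it was above background on all 6. All 6 cre lungs were above all 3 controls and the cre groups overlapped each other. Against the controls' detection limit the mean of the 9-month cre lungs was 1.55-fold higher, a lower bound, with a fitted difference of 2.52 ± 0.489 (adjusted p = 0.0272). Replicate 3 of that group exceeded the mean of its other 2 lungs by 1.6 and raised the bound. A lower bound of this kind sets the mean of the bright group against the dimmest signal called well above background on each control array. The bound for 3-month cre lungs was 1.48-fold, with a fitted difference of 2.45 ± 0.489 that did not pass the test (adjusted p = 0.0807), and the cre groups differed by 0.07. The fitted size for Col24a1 at 9 months depended on how background was treated: it was 0.54 (adjusted p = 0.128) with normexp background correction and 0.61 (adjusted p = 0.111) in the deposited values. Both are below the 9-month bound, 0.63 on the log2 scale, so the bound holds only for the main background treatment. Col24a1 entered the test only through the cre lungs, since no control array was above background. When probes had to be well above background on all 9 arrays, it was not tested, 0 collagen genes were higher, and Col4a5 (adjusted p = 0.0456) and Col12a1 (adjusted p = 0.0477) were the 2 called, both lower. The sign was the same under 20 of 20 alternatives that tested it and 10 of them kept the call; the second probe of the gene was above background on 1 array alone.

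Types I and III, the bulk of the lung's fibrillar collagen, did not separate the groups. Col1a1, which encodes the alpha 1 chain of type I, was at 4.32, 4.0 and 5.42 in controls, 4.26, 4.17 and 4.43 in 3-month cre and 3.67, 3.78 and 4.96 in 9-month cre lungs. Its partner chain Col1a2 was at 5.47, 5.33 and 6.18, then 5.52, 5.59 and 5.90, then 4.89, 4.94 and 6.16. Col3a1, the type III chain, was at 4.33, 4.19 and 5.55, then 4.50, 4.68 and 4.85, then 4.34, 3.99 and 5.73. For each of these genes the groups overlapped, and control replicate 3 and 9-month cre replicate 3 stood above the other arrays of their groups.

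The 9-month cre minus control difference was -0.44 for Col1a1 (95% interval -1.42 to 0.53), -0.33 for Col1a2 (-1.16 to 0.49) and 0.00 for Col3a1 (-1.11 to 1.11). Each interval includes a log2 difference of -1, so a fall of that size is not excluded by these lungs. Rises are not excluded either, up to 0.53 for Col1a1, 0.49 for Col1a2 and 1.11 for Col3a1. A second Col1a1 probe gave -0.19. At 3 months the differences from controls were -0.29, 0.01 and -0.01. The spread within a group was the limit: replicate 3 exceeded the mean of the other 2 lungs by 1.27 in controls and 1.24 in 9-month cre lungs for Col1a1, by 0.79 and 1.25 for Col1a2, and by 1.29 and 1.56 for Col3a1. The same gap was 1.38 and 1.28 for Col4a1, 1.12 and 1.05 for Col4a2, and 1.22 and 1.5 for Col2a1, a chain best known from cartilage. In the 3-month cre lungs it was between -0.09 and 0.42 for these 6 genes. Leaving out control replicate 3 moved the Col1a1 difference to -0.02 and leaving out 9-month cre replicate 3 moved it to -0.86.

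**Figure D3:**
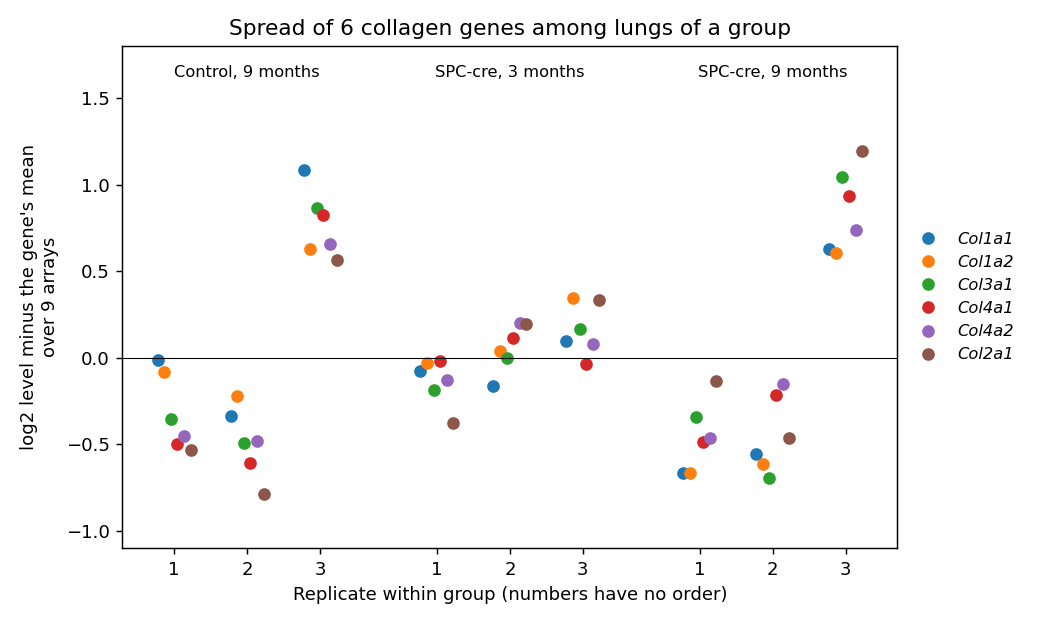
Level of 6 collagen genes in each lung, as log2 level minus the gene's mean over the 9 arrays; 1 point is 1 gene in 1 lung, grouped by condition and replicate. For all 6 genes, replicate 3 is the highest point of the controls and of the 9-month cre lungs, and the 3-month cre lungs lie closer together.

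Control replicate 3 was the highest of the 3 controls for 20 of 36 collagen genes, against 44.5% of all genes, and 9-month cre replicate 3 the highest of its group for 19 of 36, against 36% of all genes. The summed level of 9 smooth muscle and pericyte markers, in units of the array's 75th percentile, was 194 in control replicate 3 against 98.4 and 135 in the other controls, and 91.0 in 9-month cre replicate 3 against 122 and 88.5 in the other lungs of that group. This list was thus highest in replicate 3 of the controls and not of the 9-month cre lungs, and its part in the collagen spread was not tested. Col5a1, which sets fibril diameter together with Col5a2, differed by 0.02 ± 0.237 at 9 months and Col5a2 by 0.33 ± 0.293. Col11a2, a cartilage-type fibrillar chain, was at -4.51, -4.62 and -4.34 in controls, -4.58, -5.16 and -4.67 in 3-month cre and -3.99, -3.89 and -2.36 in 9-month cre lungs. Its 9-month cre lungs were above all others, at 1.08 over controls (adjusted p = 0.128) and 1.39 over 3-month cre (adjusted p = 0.0704), and without 9-month cre replicate 3 the first value was 0.55.

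Type VI collagen is built from Col6a1, Col6a2 and 1 further chain, usually Col6a3. Col6a1 was at 4.52, 4.34 and 4.85 in controls, 4.34, 4.45 and 4.64 in 3-month cre and 3.93, 4.15 and 4.14 in 9-month cre lungs. Col6a2, next to it on chromosome 10, was at 0.75, 0.57 and 1.24, then 0.64, 0.81 and 0.96, then -0.18, 0.10 and 0.60. Col6a3 was at 3.33, 3.17 and 3.63, then 3.13, 3.29 and 3.58, then 2.92, 2.60 and 3.35. For Col6a1 the 9-month cre lungs were below all others, for Col6a2 they were below the 3-month cre lungs and overlapped the controls, and for Col6a3 they overlapped both.

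The 9-month cre minus control differences were -0.49 ± 0.154 for Col6a1 (adjusted p = 0.0883), -0.68 ± 0.234 for Col6a2 (adjusted p = 0.109) and -0.42 ± 0.215 for Col6a3 (adjusted p = 0.245). None passed the test; Col6a1 did so under quantile normalization (-0.61, adjusted p = 0.0467) and in the deposited values. Col6a5, a chain that can take the place of Col6a3, was at -2.42, -1.91 and -2.86 in controls, -3.57, -1.99 and -3.46 in 3-month cre and -3.75, -3.82 and -4.78 in 9-month cre lungs. It had the largest negative difference of the family at 9 months, -1.72 ± 0.469 (adjusted p = 0.0636), with no overlap. Col6a4 spanned -4.66 to -2.07 over the arrays and differed by -0.02, from -0.84 without control replicate 3 to 0.80 with the slide block, with a negative sign in 15 of 21 alternatives. Of the 5 type VI genes, 5 had a negative difference at 9 months, with a median of -0.50, and 0 were called; the sign of the other 4 was negative under all 21 alternatives. The Col6a4, Col6a5 and Col6a6 genes are neighbours and close relatives on chromosome 9, and signal shared between their probes cannot be assigned.

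Among the fibril-associated FACIT collagens, Col12a1, which bridges type I fibrils to other matrix, was at 0.64, 0.66 and -0.25 in controls, 0.52, -0.03 and 0.31 in 3-month cre and -0.60, -0.64 and -0.72 in 9-month cre lungs. The 9-month cre lungs were below all others and close to each other, with an SD of 0.063 against 0.52 in controls. The difference of -1.0 ± 0.249 from controls narrowly missed the threshold (adjusted p = 0.0514), as did -0.92 ± 0.249 from 3-month cre lungs (adjusted p = 0.0638); 5 of 21 alternatives called the first. Control replicate 3, high for types I and III, was low for Col12a1, and without it the difference was -1.30 and called. A second, dimmer Col12a1 probe gave -0.53 (adjusted p over probes 0.27) and -0.12 (0.801). Col14a1, another collagen of the fibril surface, was 1.11 lower in 9-month than in 3-month cre lungs without passing the test (-1.11 ± 0.309, adjusted p = 0.0669), and its lungs did not overlap.

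Col20a1, a little-studied member of the same class, was at -1.48, -1.37 and -1.49 in controls, -2.5, -2.38 and -2.14 in 3-month cre and -0.93, -1.66 and -2.02 in 9-month cre lungs. It had the largest negative difference of the family at 3 months, -0.89 ± 0.249 (adjusted p = 0.134), and was 0.80 higher in 9-month than in 3-month cre lungs (adjusted p = 0.0819). Col22a1, found at tissue junctions, was above background on 2 of 3 controls and on all 6 cre lungs, with differences of 0.88 (adjusted p = 0.176) and 0.46 (adjusted p = 0.535).

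Of the remaining classes, Col15a1 and Col18a1 encode the multiplexins, basement membrane collagens that can release anti-angiogenic fragments. Col15a1 was above background on 0 of 3 controls, 1 of 3 of the 3-month cre and 3 of 3 of the 9-month cre lungs, at -7.25, -7.60 and -6.43, then -7.71, -5.54 and -6.50, then -4.93, -6.18 and -5.50. It was not called in either comparison with controls (adjusted p = 0.121 at 9 months and 0.655 at 3 months). Its 9-month mean did not exceed the controls' detection limit, so no fold is given. Col17a1, the transmembrane collagen of epithelial hemidesmosomes, was -0.89 ± 0.266 from controls at 9 months (adjusted p = 0.0789) with no overlap, and Col23a1, also transmembrane, -0.58 ± 0.162 (adjusted p = 0.0686) with no overlap. Other probes of both genes gave smaller differences. A second Col17a1 probe gave -0.61 (adjusted p over probes 0.268) and overlapped the controls. The other Col23a1 probes gave -0.35 (0.224) and -0.25 (0.701). Col7a1, which forms the anchoring fibrils of epithelia, was -0.55 ± 0.193 from controls at 3 months (adjusted p = 0.191) and -0.05 at 9 months.

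**Figure D4:**
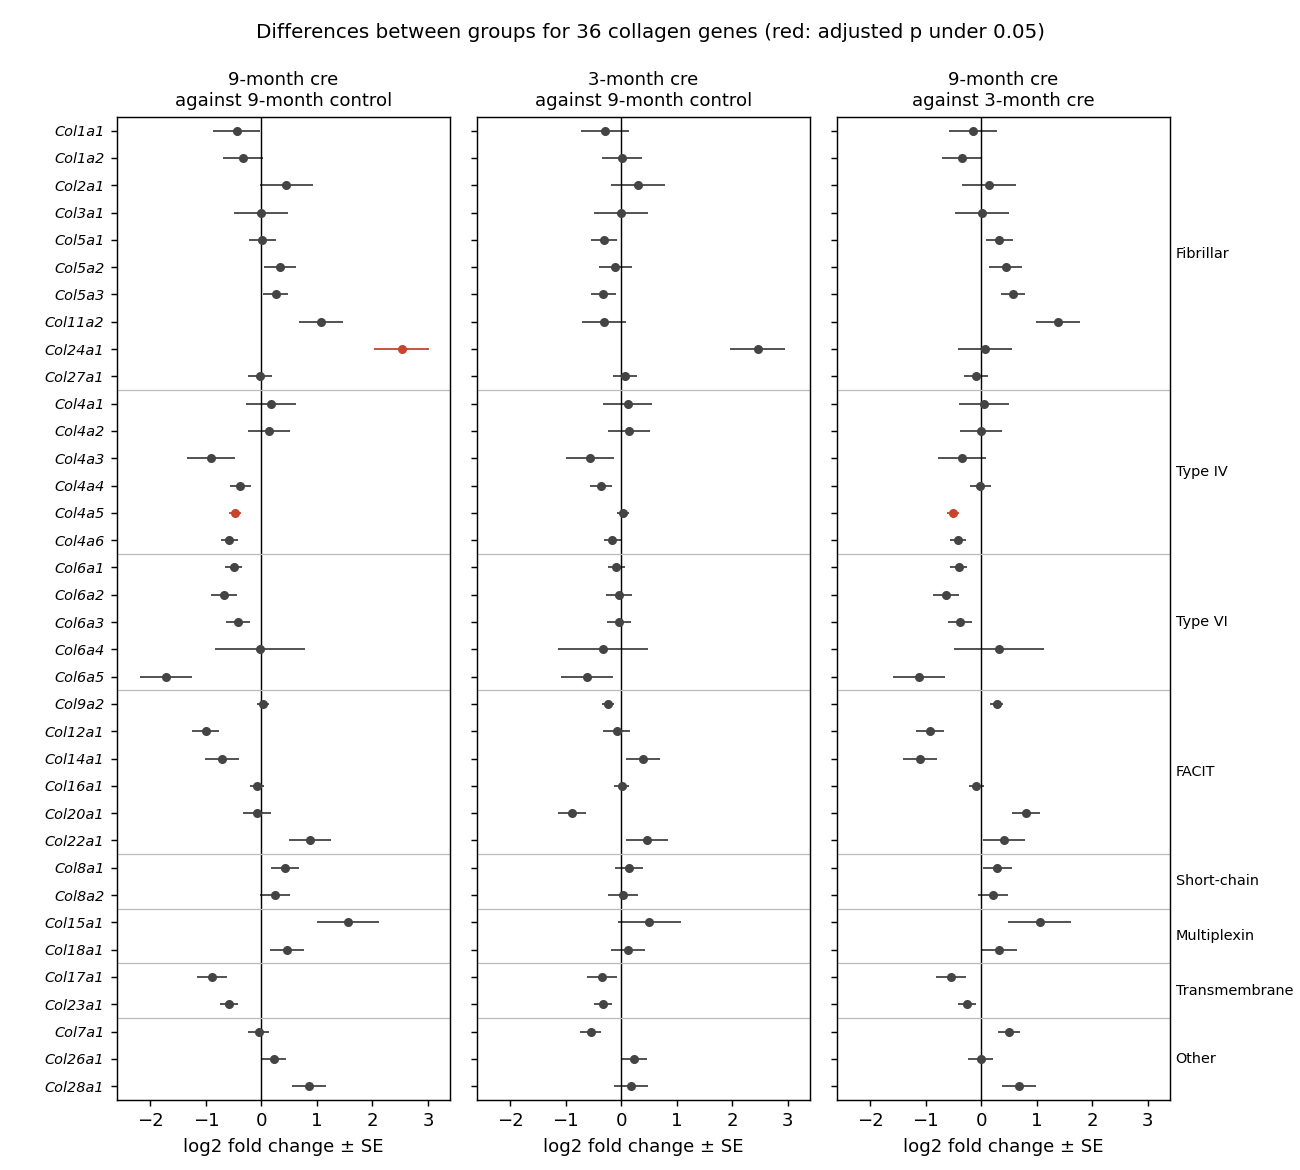
Log2 fold change with its SE for 36 collagen genes (rows, grouped by class) in the 3 comparisons (panels), from limma over 9 arrays; red marks an adjusted p under 0.05 and the first panels share the controls. Red points are Col24a1 (2.52) and Col4a5 (-0.47) at 9 months against controls and Col4a5 (-0.51) between the cre groups, and all 5 type VI genes lie at or left of 0 in the first panel.

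Groups whose 3 lungs did not overlap are frequent at this sample size. Between 9-month cre and control lungs 11 of 36 collagen genes did not overlap, 4 higher and 7 lower, where 32.5% of all genes did not, 17.5% higher and 15% lower. Between 3-month cre and control lungs the count was 6 of 36, 1 higher and 5 lower, against 31% of all genes, 19.6% higher and 11.4% lower. Between the cre groups it was 15 of 36, 7 higher and 8 lower, against 33.6%, 14.6% higher and 19% lower. Unadjusted p-values under 0.05 were found for 5 genes higher and 9 lower at 9 months against controls, where 14.8% and 12.5% of all genes had one, and for 5 higher and 7 lower between the cre groups, against 12.7% and 16% of all genes. Of the 5 genes higher against controls, Col15a1, Col22a1, Col24a1 and Col28a1 were well above background on 0, 2, 0 and 1 of 3 controls. They entered the test only through cre lungs, where they were higher. Col15a1, Col24a1 and Col28a1 are also among the 4 higher genes without overlap.

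Probes of the same gene were compared for the 7 genes with more than 1 probe that passed. Of these, 3 genes had probes of opposite sign. Col26a1 probes gave 0.22 and -0.34 at 9 months, Col6a3 probes gave -0.38 and 0.90 between the cre groups, and Col23a1 probes gave -0.25, -0.16 and 0.10 there. With each probe tested on its own over 37647 probes, an alternative chosen after seeing the data, 1 of 44 collagen probes was called at 9 months against controls, that of Col24a1, against 3.49% of all probes. Neither Col4a5 probe passed over probes, at adjusted p = 0.0764 and 0.278 against controls and 0.0515 and 0.0526 against 3-month cre lungs.

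The genes that make, process, link, bind and degrade collagen were counted from 7 lists. The counts stand beside 3.65% of all genes called higher and 2.81% lower at 9 months against controls, 0.451% called either way at 3 months, and 1.79% higher and 3.2% lower between the cre groups. Since slide as a block left 0 of 16843 genes called in each comparison, none of the calls in these lists or in the marker lists holds with it. With animal sex as a covariate none against controls holds either. Of 19 measured genes for chain modification and folding, 2 fell at 9 months against controls and 0 rose: Colgalt2, which adds galactose to hydroxylysine, fell by 0.93 ± 0.191 (adjusted p = 0.0322), and P3h2, a prolyl 3-hydroxylase that acts on type IV chains, fell by 0.80 ± 0.186 (adjusted p = 0.0435). P3h2 was at -3.05, -2.97 and -2.90 in controls, -2.74, -3.26 and -3.24 in 3-month cre and -3.94, -3.45 and -3.93 in 9-month cre lungs, so its 9-month cre lungs were below all others. Of 6 genes for procollagen cleavage, 1 fell: Pcolce2, an enhancer of C-propeptide removal, was at 4.67, 4.54 and 4.77 in controls, 4.57, 4.8 and 4.83 in 3-month cre and 3.71, 4.13 and 3.42 in 9-month cre lungs. It fell by 0.905 ± 0.181 against controls (adjusted p = 0.0298) and by 0.98 ± 0.181 against 3-month cre lungs (adjusted p = 0.0322).

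Of 6 crosslinking genes 0 were called in any comparison by limma. Lox, the lysyl oxidase that joins fibrils covalently, was at 0.59, 0.34 and 1.81 in controls, 1.01, 0.49 and 0.86 in 3-month cre and 1.79, 2.48 and 1.8 in 9-month cre lungs. Its 9-month cre difference was 1.11 from controls (adjusted p = 0.107), where control replicate 3 overlapped, and 1.23 from 3-month cre lungs (adjusted p = 0.0795). Loxl2 differed by 0.87 (adjusted p = 0.144), and in this list 2 genes had an unadjusted p under 0.05 at 9 months against controls, 0 at 3 months and 3 between the cre groups, where 4603, 3155 and 4839 of 16843 genes had one. Of 15 proteoglycans, glycoproteins and elastic fibre genes that bind fibrils, 0 were called against controls at 9 months and 3 had an unadjusted p under 0.05; Lum differed by -1.21 (adjusted p = 0.088) and Eln by 0.86 (adjusted p = 0.379). Aspn, a small proteoglycan, was lower in 9-month than in 3-month cre lungs by 1.17 on the log2 scale (-1.17 ± 0.229, adjusted p = 0.0368).

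Among 18 basement membrane partners, Lama1, the laminin alpha 1 chain, rose and Npnt, nephronectin, fell at 9 months against controls. Lama1 was at -1.25, -2.55 and -2.5 in controls, -0.61, -1.08 and -0.75 in 3-month cre and 0.88, -0.14 and 1.46 in 9-month cre lungs, with no overlap among the 3 groups. The rise was 2.84 ± 0.455 (adjusted p = 0.0182), and the 3-month difference of 1.29 did not pass (adjusted p = 0.194). Npnt was at 0.23, -0.15 and 0.61 in controls, 0.02, 0.25 and 0.14 in 3-month cre and -1.0, -1.49 and -0.51 in 9-month cre lungs, a fall of 1.23 ± 0.265 against controls (adjusted p = 0.0355). Lama3 and Lamb3, chains of an epithelial laminin, were lower in 9-month than in 3-month cre lungs, at -0.79 (adjusted p = 0.0437) and -0.74 (adjusted p = 0.0309), as was Npnt at -1.14 (adjusted p = 0.0493). The 3-month cre lungs were above the controls for Lamb3, at 2.85 to 3.13 against 2.45 to 2.63.

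Of 11 collagen receptors, Lair1, an inhibitory receptor of leukocytes, rose by 1.45 ± 0.336 (adjusted p = 0.0427) and Itga1, the alpha 1 integrin that binds type IV collagen, fell by 0.87 ± 0.208 (adjusted p = 0.0471) at 9 months against controls. Itga1 was at 2.57, 2.29 and 2.49 in controls, 1.95, 1.36 and 1.5 in 3-month cre and 1.22, 1.63 and 1.89 in 9-month cre lungs, so both cre groups were below the controls. Of 15 proteases and inhibitors of collagen breakdown, 4 rose at 9 months and 0 fell. These were Ctsk, cathepsin K, which cleaves the triple helix (1.87 ± 0.277, adjusted p = 0.0162), Timp1, an inhibitor of metalloproteinases (1.31 ± 0.293, adjusted p = 0.0394), Ctss (1.21 ± 0.232, adjusted p = 0.0267) and Ctsb (0.92 ± 0.194, adjusted p = 0.0341). Ctsk was at 2.56, 2.03 and 1.92 in controls, 4.59, 4.74 and 4.70 in 3-month cre and 4.67, 3.84 and 3.6 in 9-month cre lungs, and at 3 months it was the one gene of the list that rose (2.51 ± 0.277, adjusted p = 0.0208).

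At 3 months against controls Ctsk was the one gene called in the 7 lists. Uncalled differences included Fmod at 0.85 (adjusted p = 0.279) and Bgn at 0.82 (adjusted p = 0.346), both fibril-binding proteoglycans, and Itga1 at -0.84 (adjusted p = 0.112). Serpinh1, the collagen chaperone HSP47, differed by -0.52 (adjusted p = 0.311) and P3h1 by 0.40 (adjusted p = 0.464), while Bmp1, the C-propeptide protease, differed by 0.41 (adjusted p = 0.378) and Adamts14 by -0.46 (adjusted p = 0.268). The crosslinking genes Loxl3 and Loxl1 differed by -0.20 and -0.17. Between the cre groups Gp6, the platelet collagen receptor, differed by 2.25 (adjusted p = 0.0785), Itga10 by 0.91 (adjusted p = 0.0874), Mmp16 by -1.31 (adjusted p = 0.102) and Mmp8 by 1.08 (adjusted p = 0.434).

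Markers of the cell types that make collagen or carry these genes also differed. Of 9 alveolar and adventitial fibroblast markers, 3 fell and 0 rose at 9 months against controls, Fgf10 by 0.94, Meox2 by 0.81 and Clec3b by 1.82, and 9 of 9 differences were negative. The summed level of that list was 64.7 to 77.2 in controls, 52.7 to 57.9 in 3-month cre and 36.8 to 57.7 in 9-month cre lungs. The 6 myofibroblast and activated fibroblast markers summed to 39.5 to 50.3, 54.2 to 69.0 and 53.4 to 95.5, and 1 of them, Spp1, rose, by 1.82. Without Spp1, a sum chosen after seeing the data, the other 5 were at 27.6 to 36.7, 32.4 to 36.2 and 21.9 to 53.2, which overlapped. Over the 6 markers, 4 differences were positive and 2 negative at 9 months against controls. The negative ones were Postn, at -0.82 (adjusted p = 0.0808), and Aspn, at -0.62 (adjusted p = 0.125). Among the positive ones, Tnc was at -3.21, -3.16 and -2.17 in controls and -2.11, -1.84 and -0.96 in 9-month cre lungs, with no overlap. Of 8 macrophage markers 4 rose and 0 fell, with sums of 52.7 to 159, 198 to 257 and 176 to 264. Of 10 airway cartilage markers 3 were measured, and Acan, Matn1 and Hapln1 were among the 7 not above background.

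Neutrophil differences were positive for 7 of 7 markers at 9 months against controls, and Ngp (5.67), Camp (4.91) and Mpo (2.58), all granule proteins, rose. Ngp was at -6.48, -7.55 and -5.84 in controls, near background, so its fitted size is uncertain. The sums over the 7 markers were 18.3 to 135, 80.4 to 149 and 49.4 to 285 and overlapped. Endothelial differences were negative for 7 of 8 markers, and Kdr, a receptor for VEGF, fell by 0.96 (adjusted p = 0.0199), with sums of 105 to 120, 99.6 to 120 and 86.9 to 153. Of 8 alveolar type 2 markers 5 were negative and the transcription factor gene Etv5 fell by 0.87 (adjusted p = 0.0232), with sums of 540 to 619, 579 to 789 and 609 to 783. Between the cre groups the endothelial genes Car4 (-0.91) and Ednrb (-1.43) and the type 2 genes Slc34a2 (-1.99) and Etv5 (-0.91) were called lower at 9 months, in the comparison that also called Col4a5.

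Smooth muscle and pericyte differences were negative for 9 of 9 markers at 9 months against controls, 0 of them called by limma and 2 at an unadjusted p under 0.05. Cardiac muscle differences were negative for 7 of 8 markers, with 0 called and 2 at an unadjusted p under 0.05. Alveolar type 1, mesothelial and skeletal muscle lists had 0 called there, with 3 of 7, 2 of 5 and 2 of 4 genes at an unadjusted p under 0.05. Beside the counts for all marker lists in this comparison, 47.2% of all genes had a negative difference. An unadjusted p under 0.05 was found for 14.8% of all genes higher and 12.5% lower. The part of these cell types in the collagen values was not tested.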

How the data were processed

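RNA of 9 whole lungs, labelled with Cy3, was measured on 9 one-colour arrays. Per the file headers, Agilent Feature Extraction 10.7.3.1 gave a background-subtracted processed signal intensity per spot, not scaled between arrays; the authors also deposited normalized intensity values, used as an alternative. From the 59305 non-control spots irregular spots were dropped and spots of a probe averaged, and log2 processed signal was taken relative to the array's 75th percentile. Probes had to be well above background on every array of 1 group, and each gene is its probe with the highest mean. The scaling fixes each array's 75th percentile, so a change shared by most genes would not be seen. Probes were named through RefSeq transcripts; 23611 of 56605 had no such name. The position of a probe in its transcript was not used here, so chains with related sequences may share signal.

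A single limma model (version 3.58.1, R 4.3.3) covered all 9 arrays, with a mean per group and 6 residual degrees of freedom; tests were two-sided with Benjamini-Hochberg adjustment over 16843 genes. The code was tested on simulated data. The labels call the replicates biological. The array count limits the precision. Where a group was below background on all arrays, the fold is a lower bound on the difference of means, under the main background treatment. The named genes are Terf1 and Sftpc, every called collagen gene, the 3 largest uncalled differences in each direction, the main chains of types I, III, IV, V and VI, genes whose probes disagree, and from each of 7 pathway lists up to 4 called members or 2 uncalled ones. A gene taken in by this rule is not reported here. Some others were named after their values were seen (Col2a1, Col7a1, Col17a1, Col6a4). Members and lists were chosen with earlier results of these data known. Alternatives changed the background correction (normexp, offset 50), scaling, source, filter, probe choice, slide, sex, replicate block and arrays.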

Additional observations from a re-analysis of the deposited data

Results flagged for a closer look

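Col4a5 differed between the effects of 3 and 9 months of cre, each taken against the same controls: the difference was -0.51 (limma, adjusted p = 0.0475), with -0.47 at 9 months and 0.03 at 3 months. All 3 of the 9-month cre lungs were below all 3 of the 3-month cre lungs. Age differed along with tamoxifen time between these groups, and age and time cannot be told apart.

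Among the collagen probes that the comparisons did not use, 4 were well above background on 2 cre arrays each and on 0 of 3 control arrays, belonging to Col11a2, Col22a1, Col28a1 and Col9a1. The Col28a1 probe was at -5.79, -7.54 and -7.14 in controls, -7.74, -7.60 and -6.19 in 3-month cre and -8.09, -5.41 and -3.13 in 9-month cre lungs. Other unused probes went differently: 1 probe each of Col19a1 and Col25a1 was well above background on 1 control and 0 cre arrays. A Col15a1 probe was so on 1 control and 4 cre arrays. The share of all unused probes with the flagged pattern is not given here. There are 6 cre arrays and 3 control arrays, the controls were all on slide 1, and these values were not tested.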

How the results depend on the processing

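No call of a collagen gene reversed under any alternative. At 9 months against controls the main setting called 2 collagen genes; the deposited values called 4 (Col4a5, Col4a6, Col6a1 and Col12a1), testing without a filter on dim probes 1, averaging a gene's probes 1, and the slide block, animal sex as a covariate and fitting the 2 groups alone 0 each. Over all 16843 genes the slide block and animal sex also called 0 at 9 months against controls (limma, 837 and 3711 at an unadjusted p under 0.05), and the 2 groups alone 127 higher and 58 lower. Between the cre groups the slide block called 0 of all genes (3589 at an unadjusted p under 0.05) and animal sex 92 higher and 142 lower. At 3 months against controls, where the main count was 0, the 2 groups alone called 2 (Col20a1 and Col24a1). Between the cre groups, where the main count was 1, median scaling, no filter, the slide block, animal sex, the 2 groups alone and slide 2 alone called 0 each. The median collagen difference at 9 months was -0.019 and became -0.23 with the slide block, which rests on the 1 slide 1 lung that carried cre. Leaving out 1 array at a time gave counts of 0 to 3, 0 to 1 and 0 to 3 in the 3 comparisons in the order above, and medians of -0.13 to -0.005, -0.144 to 0.068, and -0.179 to 0.135. The highest count came in the first comparison when 9-month cre replicate 2 was left out, in the second without replicate 3 of that group, and in the third without control replicate 3 or replicate 3 of the 9-month cre lungs. The cause of these differences was not tested.

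Replicate numbers did not pair the lungs: deviations of same-numbered lungs correlated at -0.236 to 0.045. With the replicate block 1 collagen gene (Col6a5) was called at 9 months against controls and 0 between the cre groups, and over all genes 201 higher and 116 lower in place of 614 and 473, and 2 higher and 4 lower in place of 301 and 539.

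Signal near background limits Col24a1, Col15a1, Col22a1 and Col28a1, and 7 collagen genes could not be tested.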
